A study of Homo sapiens with 6 samples.

Results

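The aminoacyl-tRNA synthetases, the enzymes that join each amino acid to its transfer RNA, were followed through their messenger RNAs in SK-Hep1, a cell line from a human liver tumour. The members were genes whose symbol is that of 1 of 20 cytosolic enzymes, such a symbol or EARS, FARS or PARS followed by 2 for an enzyme of the mitochondrion, or AIMP1, AIMP2 or EEF1E1, noncatalytic scaffold proteins. The rule allows 46 symbols, and 40 of them were listed among 11593 gene symbols. They comprised 20 cytosolic enzymes or enzyme subunits, 17 mitochondrial enzymes and 3 scaffold proteins, and took 98 of 28768 transcript rows, which were summed for each gene. The symbols EPRS2, FARSA2, FARSB2, GARS2, KARS2 and QARS2 carried no row.

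The study sought messengers that associate with SNHG10, a long noncoding RNA. It comprised 6 libraries labelled as ChIRP, in which biotinylated antisense DNA probes retrieve an RNA together with what is crosslinked to it: 3 were made with an SNHG10 complete probe set (RiboBio) and 3 with a LacZ control probe set (Millipore), directed at a bacterial gene. Both groups came from untreated SK-Hep1 cells as far as the labels tell, with no change of genotype, time or dose, so the probe set is the labelled difference. The labels describe Trizol extraction and libraries from total RNA, the series design describes retrieved RNA, so the fraction that was sequenced is not given unequivocally.

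Levels are FPKM, fragments scaled to transcript length and library size, so levels of different genes can be set side by side. The FPKM totals ran from 268794 to 277118 per library, and the read depth behind them is unknown. The labels do not say that replicates came from separate cultures, so a p-value reflects spread among libraries only, some or all of it possibly technical. The cells are labelled as hepatocellular carcinoma, yet of 10 hepatocyte markers only SERPINA1 and CPS1 were listed, at a summed 1.04 to 1.72 FPKM with SNHG10 probes and 1.25 to 2.12 FPKM with LacZ probes. All 7 mesenchymal markers were listed, at a summed 1051 to 1373 and 1122 to 1710 FPKM. Most of that sum was VIM, at 833 to 1522 FPKM over the libraries, and the median of the 7 markers was 23.3 FPKM. Of 9 endothelial markers 3 were listed, at 42.4 to 51.2 and 46.4 to 61.8 FPKM, most of it ENG (30.7 to 41.8 FPKM). Of 6 leukocyte markers CD14 and CD68 were listed, at 36.8 to 56.1 and 43.1 to 56.5 FPKM, most of it CD68 (35.3 to 54.4 FPKM). EGFL7, at 8.30, 7.45 and 8.18 FPKM with SNHG10 probes and 26.0, 18.8 and 14.03 FPKM with LacZ probes, was the 1 tested marker with separated libraries (log2 difference -1.16 ± 0.27, limma adjusted p = 0.778), and its part in the family's values was not tested. Separated were thus 1 of 3 tested endothelial, 0 of 7 mesenchymal and 0 of 2 leukocyte markers, beside 11.4% of all genes tested. The other markers with the smallest p in each list overlapped, at 0.23 for ROBO4, 0.04 for ENG, 1.71 for TAGLN, -0.44 for VIM, -0.83 for ACTA2, -0.29 for CD14 and 0.00619 for CD68. Fewer cells of a type and less RNA per cell cannot be told apart in such bulk libraries.

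Each synthetase recognises its amino acid and the matching transfer RNAs, and the accuracy of protein synthesis rests on this step. Cytosolic and mitochondrial protein synthesis use separate sets of enzymes encoded by separate nuclear genes, except that GARS and KARS each give rise to both forms and that mitochondrial glutaminyl-tRNA is made from glutamyl-tRNA by an amidotransferase. Several cytosolic enzymes are bound with AIMP1, AIMP2 and EEF1E1 in the multisynthetase complex, while the others work outside it. When amino acids run short, the kinase GCN2 and the transcription factor ATF4 raise many cytosolic synthetase genes, acting at promoter elements bound by ATF4 together with C/EBP factors.

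The promoters of the family were read in the RefSeq promoter table (GRCh38.p14, 250 bases before to 50 bases after each start), which held 33 of the 40 members under their current symbols. DARS, LARS, VARS, YARS, AARS2 and VARS2 were among the 7 with no entry. The 8-letter core TGATGNAA of the C/EBP-ATF response element, or its reverse complement TTNCATCA, was searched on both strands. It lay in the windows of 8 of these 33 members (24.2%), against 1217 of all 27305 genes in the table (4.46%) and 222 of the 8439 genes that were tested here and had a window (2.63%). A gene counted once whichever of its windows held the core. The matched stretches are printed to show the letters found in these 8 genes. Capitals mark the match, with up to 30 bases before it and up to 30 after it, ending at the transcript start or at the end of the match; the strand is that of the gene.

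AARS, chr16:70289656-70289723, minus strand: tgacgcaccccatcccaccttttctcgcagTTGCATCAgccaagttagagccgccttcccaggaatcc
CARS, chr11:3057418-3057455, minus strand: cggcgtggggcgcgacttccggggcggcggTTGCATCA
GARS, chr7:30594815-30594877, plus strand: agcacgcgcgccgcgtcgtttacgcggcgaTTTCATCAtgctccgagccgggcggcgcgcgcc
IARS, chr9:92293698-92293740, minus strand: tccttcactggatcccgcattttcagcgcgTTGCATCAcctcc
MARS, chr12:57488034-57488071, plus strand: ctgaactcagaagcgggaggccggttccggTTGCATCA
NARS, chr18:57621815-57621852, minus strand: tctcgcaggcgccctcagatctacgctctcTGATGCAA
TARS, chr5:33440937-33440974, plus strand: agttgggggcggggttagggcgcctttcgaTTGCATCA
YARS2, chr12:32756057-32756124, minus strand: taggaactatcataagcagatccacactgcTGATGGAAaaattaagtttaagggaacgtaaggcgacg

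Counted from the start base as 1, with no base 0, the core ran from -2 to 6 in CARS, from -4 to 4 in MARS, from 3 to 10 in TARS, from 15 to 22 in NARS, from -13 to -6 in IARS and from -33 to -26 in GARS. It was farther from the start in AARS, from -187 to -180, and in YARS2, from -197 to -190. Of the 8 genes, 7 encode cytosolic enzymes, out of 16 with a window (43.8%), and YARS2 was the 1 of 14 mitochondrial genes with a window (7.14%). All 7 cytosolic genes were on a list of 12 synthetase genes known as ATF4 targets, of which 10 had a window (70%), and none of the 6 other cytosolic genes with a window held the core. The core belongs to the element at which ATF4 acts, so the list and the match may not be independent. None of the 3 scaffold genes held it. A match describes the letters in this window and is not a measured binding site, and the files hold no measurement of binding.

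**Figure D1:**
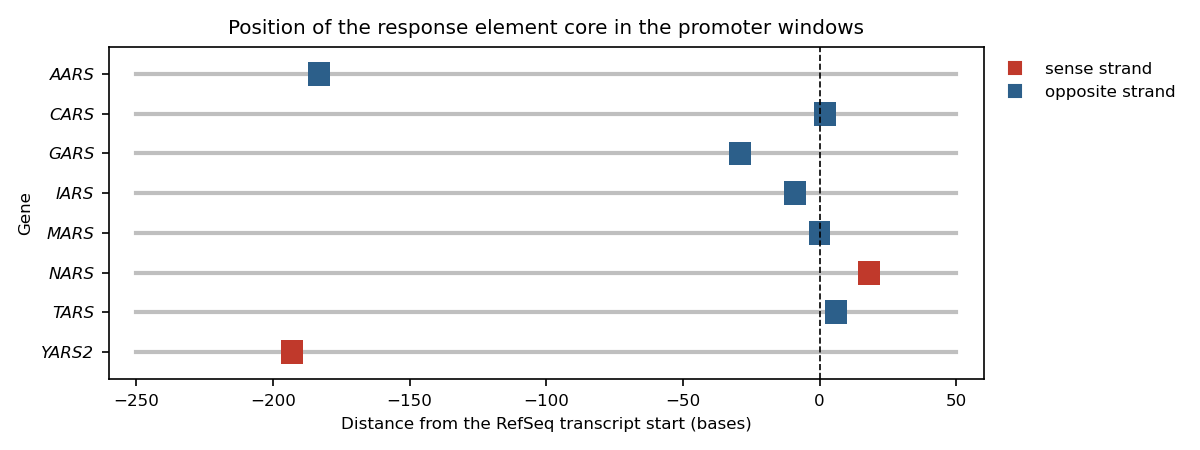
Position of the response element core in the promoter windows of the 8 family genes that hold it. The x axis is the distance from the RefSeq transcript start in bases, grey lines are the windows, squares mark the match and colours give its strand; in 6 genes the match lies close to the start or across it, and in AARS and YARS2 it lies nearer the far end of the window.

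The median member stood at 22.0 FPKM over the 6 libraries, against 7.801 FPKM for all 10304 genes tested, and the cytosolic enzymes carried most of it. Their median was 41.2 FPKM, with a range from 13.8 to 107 FPKM, against 9.43 FPKM for the mitochondrial enzymes and 23.4 FPKM for the scaffold proteins. AARS, the alanyl-tRNA synthetase (hg19 chromosome 16, 70286198 to 70323446, minus strand), was the most abundant at 107 ± 9.79 FPKM (SD, n = 6), above 97.1% of all listed genes. MARS, which charges the initiator and elongator methionine tRNAs, followed at 96.1 ± 10.3 FPKM and SARS, the seryl-tRNA synthetase, at 85.5 ± 5.81 FPKM. Neighbours among these 3 differed by less than their SDs added together, whereas every library placed SARS (76.5 to 93.7 FPKM) above all values of the next gene, the valyl-tRNA synthetase VARS (58.2 to 74.7 FPKM).

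From VARS downward the cytosolic order was a slope of overlapping neighbours. VARS averaged 66.7 FPKM, IARS (isoleucine) 65.1, GARS (glycine) 58.6, YARS (tyrosine) 57.5, KARS (lysine) 48.9 and LARS (leucine) 42.4 FPKM. EPRS, a fused enzyme for glutamate and proline, averaged 41.4 FPKM, QARS (glutamine) 40.9, CARS (cysteine) 40.5 and WARS (tryptophan) 32.3 FPKM. Lower down stood FARSB and FARSA, the 2 subunits of the phenylalanine enzyme, at 25.5 and 24.4 FPKM, with NARS (asparagine) at 25.2 and TARS (threonine) at 24.6 FPKM. RARS (arginine) at 19.3, DARS (aspartate) at 18.1 and HARS (histidine) at 13.8 FPKM closed the order. The FARSA to FARSB ratio, for subunits that assemble in equal number, ran from 0.594 to 1.30 over the 6 libraries.

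The 7 cytosolic genes with the promoter core had a median level of 58.6 FPKM, against 32.3 FPKM for the 9 that had a window without it. The cytosolic genes on the ATF4 target list had a median of 49.9 FPKM and the 8 others 25.0 FPKM. These are descriptions of chosen lists, with no test.

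**Figure D2:**
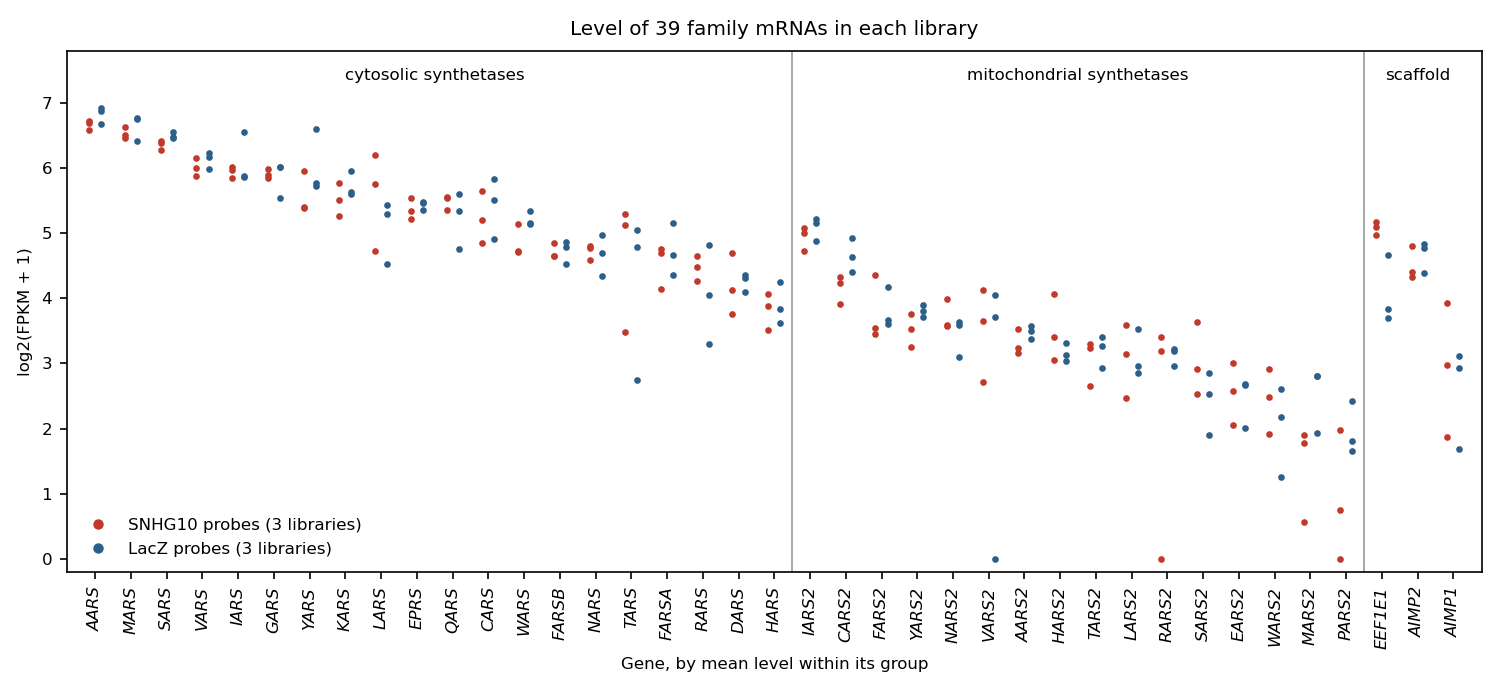
Level of 39 family messenger RNAs in each of the 6 libraries, as log2(FPKM + 1), with the genes ordered by mean level within the cytosolic, mitochondrial and scaffold groups. Points are single libraries, coloured by probe set; most cytosolic points lie above most mitochondrial ones, and the values of VARS2, RARS2 and PARS2 include a library listed at 0.

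Among the mitochondrial enzymes IARS2 (31.4 ± 3.98 FPKM) and CARS2 (20.7 FPKM) stood highest. FARS2, a single-chain phenylalanine enzyme unlike its cytosolic counterpart, averaged 13.3 FPKM, YARS2 11.8, NARS2 11.2, AARS2 9.60, HARS2 9.43, TARS2 7.90 and LARS2 7.83 FPKM. SARS2 at 6.09, EARS2 at 4.82, WARS2 at 3.99 and MARS2 at 3.41 FPKM were lower. The values of the remaining 3 genes include a 0, which can be a failed estimate, so they are given by library. VARS2 was listed at 5.57, 16.4 and 11.5 FPKM with SNHG10 probes and at 0, 12.1 and 15.5 FPKM with LacZ probes. RARS2 was listed at 8.13, 9.63 and 0 FPKM against 8.12, 6.82 and 8.29 FPKM. PARS2, the mitochondrial prolyl-tRNA synthetase, was listed at 0, 2.93 and 0.684 FPKM against 2.504, 4.37 and 2.14 FPKM. In each of these genes the probe sets overlapped.

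Of 15 amino acids with a cytosolic and a mitochondrial enzyme set side by side, the cytosolic messenger was the higher in all 6 libraries for 13. The exceptions were threonine and histidine, where it was higher in 5 libraries. Over the 12 pairs without a library at 0 the ratio of the mean levels had a median of 5.14, from 1.46 for HARS over HARS2 to 28.2 for MARS over MARS2. SARS exceeded SARS2 14.05-fold, AARS exceeded AARS2 11.2-fold, EPRS exceeded EARS2 8.59-fold and WARS exceeded WARS2 8.10-fold. Cysteine (1.95), isoleucine (2.07) and asparagine (2.25) had ratios nearer that of histidine. Cysteine and isoleucine thus paired the highest mitochondrial messengers with cytosolic ones at 40.5 FPKM (CARS) and 65.1 FPKM (IARS). For methionine the cytosolic member was second of the family and the mitochondrial one next to last.

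**Figure D3:**
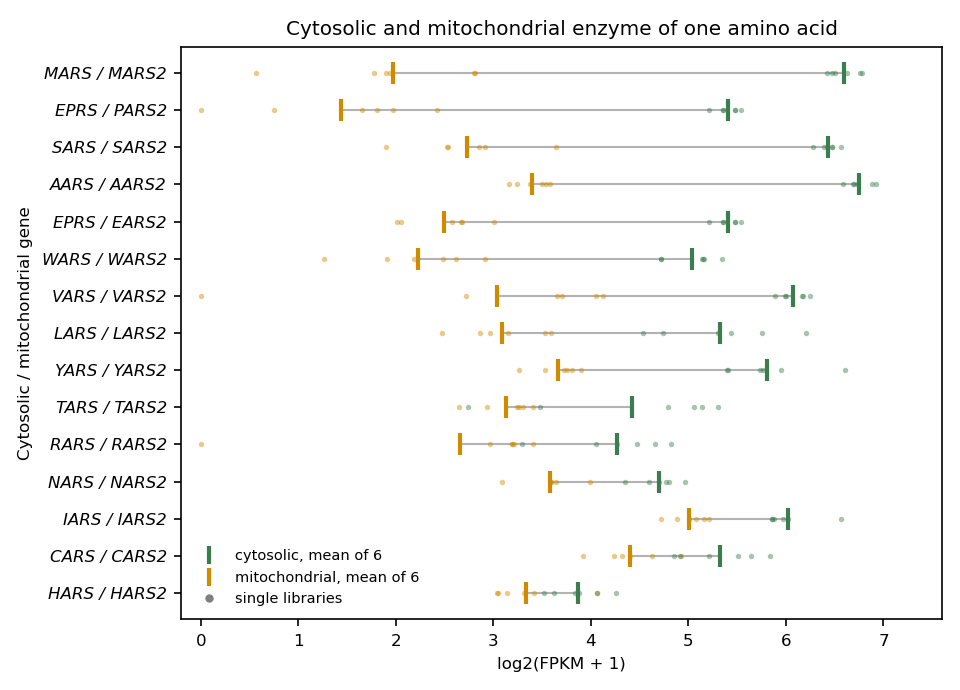
Levels of the cytosolic and mitochondrial enzymes of the same amino acid, as log2(FPKM + 1). Points are single libraries and bars are means of 6; the gap is widest for MARS and MARS2 (28.2-fold) and narrowest for HARS and HARS2 (1.46-fold).

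The comparison of the probe sets asked whether any of these messengers was enriched with SNHG10 probes over LacZ probes. None of the 40 passed limma at an adjusted p of 0.05, and 0 of the 10304 genes tested did (0%), with adjusted p from 0.864 to 0.998 among members. At an unadjusted p of 0.05 limma picked 2 of 40 members, EEF1E1 and MARS2, against 5.42% of all genes. EEF1E1 was the 1 with a positive difference, beside 2.1% of all genes, and MARS2 the 1 with a negative difference, beside 3.32%. The libraries of the probe sets did not overlap for 5 of 40 members (12.5%), against 11.4% of all genes, so the family's share lay near the background. In 1 of the 5, EEF1E1, the SNHG10 libraries were higher, against 4.22% of all genes with that order, and in SARS, WARS, CARS2 and MARS2 they were lower, against 7.21%.

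The differences were small for most of the family. The median log2 difference, SNHG10 minus LacZ on the log2(FPKM + 1) scale, was -0.09 over the members and -0.05 over all genes tested. It was negative for 26 members and positive for 14, beside 56.7% negative among all genes; after median-ratio scaling of the libraries 22 were negative and 18 positive, and after quantile normalization 23 and 17. The family held 0.423 ± 0.0186% (SD, n = 3) of all FPKM in SNHG10 libraries and 0.435 ± 0.0108% (SD, n = 3) in the LacZ libraries, and these shares overlapped. Cytosolic enzymes held 0.335% and 0.351%, and mitochondrial ones 0.0639% and 0.0671%, with overlap in both. The median SD within a probe set, on the log2 scale, was 0.26 for cytosolic enzymes, 0.42 for mitochondrial enzymes and 0.40 for all genes tested.

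**Figure D4:**
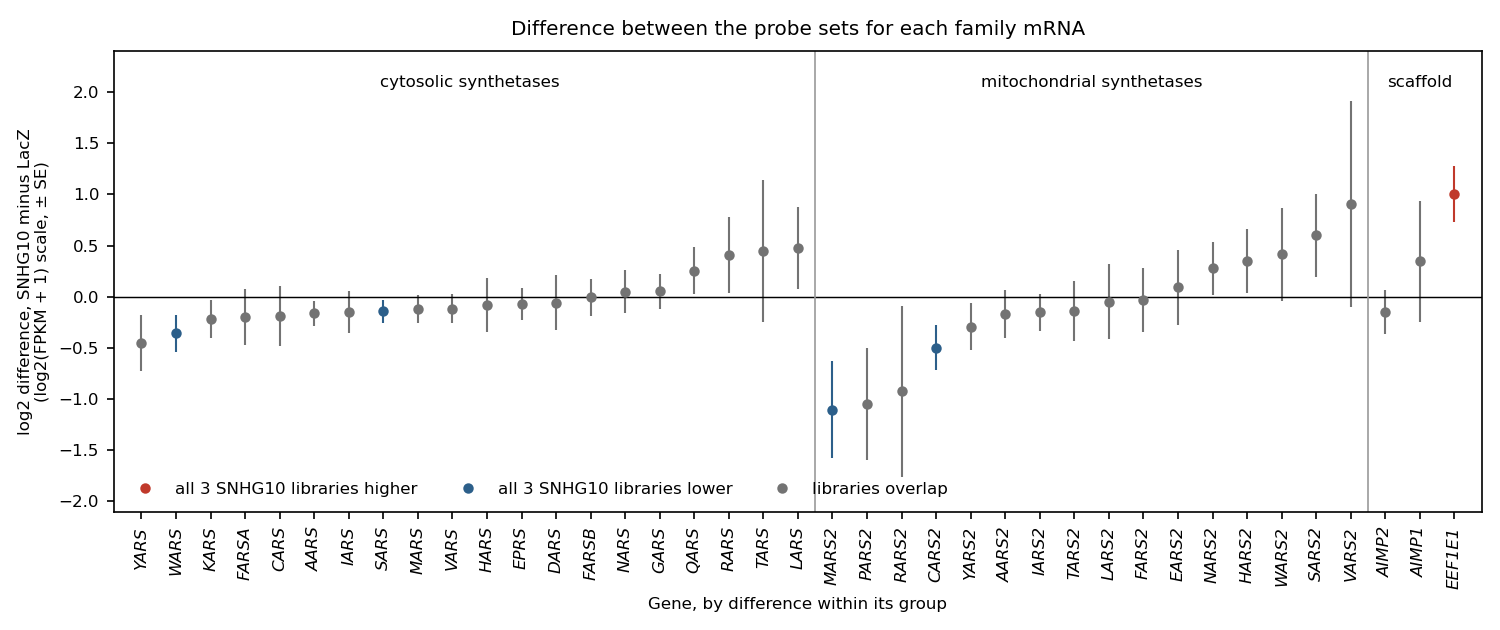
Difference between the probe sets for each family messenger RNA, as log2 SNHG10 minus LacZ on the log2(FPKM + 1) scale, with bars for the SE of the limma fit. Red marks the gene whose SNHG10 libraries were all higher (EEF1E1), blue the 4 genes whose SNHG10 libraries were all lower (SARS, WARS, CARS2, MARS2), and grey the 34 genes drawn whose libraries overlapped; no gene passed the adjusted threshold.

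The scaffold proteins include the member with the smallest p. EEF1E1 (hg19 chromosome 6, 8079628 to 8102811, minus strand), also called AIMP3 or p18, links the methionine enzyme to the complex and also has roles outside it. It measured 35.0, 30.4 and 33.1 FPKM with SNHG10 probes and 24.4, 13.3 and 12.0 FPKM with LacZ probes. All 3 SNHG10 libraries thus lay above all 3 LacZ libraries, and LacZ 1 lay closer to the SNHG10 libraries than to the other LacZ libraries. The log2 difference was 1.01 ± 0.27 (SE), with an unadjusted limma p of 0.0065 and an adjusted p of 0.864, which misses the threshold. The limma adjusted p ran from 0.472 to 0.922 over the alternative settings, and was 0.494 without LacZ 1, where the difference was 1.31.

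AIMP2, the central scaffold that binds the lysine enzyme, measured 19.2, 26.9 and 20.3 FPKM with SNHG10 probes and 27.5, 20.1 and 26.4 FPKM with LacZ probes, with overlap. AIMP1, also known as the source of the secreted cytokine EMAP II, measured 14.2, 6.87 and 2.65 FPKM against 7.68, 2.20 and 6.63 FPKM. SNHG10 1 lay above all LacZ libraries and SNHG10 3 among them, and the log2 difference of 0.35 ± 0.59 became -0.15 without SNHG10 1 and -0.10 without LacZ 2. Together the scaffold genes held 0.0233 ± 0.0025% of the FPKM total with SNHG10 probes and 0.0170 ± 0.0044% with LacZ probes, with overlap.

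The multisynthetase complex holds 8 enzymes besides the scaffold proteins. The messengers of its 11 subunits spanned 14.3-fold in mean level, from MARS to AIMP1 (6.70 FPKM), and held 0.161% and 0.153% of the FPKM totals. Their log2 differences were positive for 5 and negative for 6 subunits (6 and 5 after median-ratio scaling), with a median of -0.06 against -0.05 for all genes. MARS measured 89.9, 98.0 and 87.6 FPKM with SNHG10 probes and 109, 84.8 and 107 FPKM with LacZ probes, with overlap. EPRS, which also carries a translational control role in inflammation, was among the steadiest members, at 39.8, 36.2 and 45.4 FPKM against 43.6, 43.4 and 40.04 FPKM. KARS measured 37.4, 44.5 and 54.0 FPKM against 61.2, 47.5 and 48.8 FPKM, again with overlap.

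The other enzymes of the complex varied more between libraries. LARS, which also serves as a leucine sensor for mTORC1, measured 72.8, 53.0 and 25.6 FPKM with SNHG10 probes and 22.2, 38.4 and 42.2 FPKM with LacZ probes. Its SNHG10 3 lay among the LacZ values, and the log2 difference was 0.48 ± 0.40 (limma adjusted p = 0.928). It was 0.16 without SNHG10 1, 0.20 without LacZ 1 and 0.89 without SNHG10 3. IARS measured 56.9, 63.8 and 61.7 FPKM against 93.4, 57.2 and 57.7 FPKM, so that LacZ 1 alone lay outside a narrow band; the log2 difference of -0.15 became 0.08 without it. RARS measured 18.3, 24.2 and 21.3 FPKM against 27.3, 15.6 and 8.83 FPKM, and DARS 25.0, 12.6 and 16.5 FPKM against 18.8, 16.1 and 19.5 FPKM. QARS measured 40.005, 46.2 and 45.9 FPKM against 26.1, 47.7 and 39.5 FPKM. In all of these the probe sets overlapped.

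The 12 cytosolic enzymes and subunits outside the complex had a median log2 difference of -0.13, with 9 negative and 3 positive (8 and 4 after median-ratio scaling or quantile normalization). SARS (hg19 chromosome 1, 109756540 to 109780770, plus strand) measured 82.8, 84.5 and 76.5 FPKM with SNHG10 probes and 88.0, 93.7 and 87.8 FPKM with LacZ probes. Every SNHG10 library lay below every LacZ library, by a log2 difference of -0.14 ± 0.12 (limma adjusted p = 0.928). The leading row SARS-201, 98.4% of the gene value, overlapped, at 83.2 FPKM in SNHG10 2 and 83.0 FPKM in LacZ 3. The minor row SARS-202 added 1.25 and 4.76 FPKM in these libraries, so the separation of SARS rested on it. WARS, an interferon-induced enzyme in many cells, measured 25.4, 34.3 and 25.4 FPKM against 34.8, 39.7 and 34.4 FPKM. Its sets were separated by the margin between SNHG10 2 and LacZ 3 alone, 34.3 against 34.4 FPKM, and the log2 difference was -0.36 ± 0.18 (limma adjusted p = 0.893).

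AARS measured 95.0, 105 and 103 FPKM with SNHG10 probes and 117, 102 and 121 FPKM with LacZ probes, which overlapped through LacZ 2. YARS measured 40.9, 41.3 and 61.0 FPKM against 52.1, 96.3 and 53.5 FPKM, with LacZ 2 high and SNHG10 3 within the LacZ range (log2 difference -0.45 ± 0.27, limma adjusted p = 0.928). TARS varied most among the cytosolic genes, at 10.2, 38.5 and 34.2 FPKM against 5.69, 32.2 and 26.7 FPKM. Replicate 1 was the low library of TARS with both probe sets, and the log2 difference of 0.44 ± 0.69 ranged from -0.28 to 1.02 with 1 library left out. With the replicate number as a block in the fit, the SE of TARS was 0.21 (limma adjusted p = 0.886). CARS, GARS, VARS, NARS, HARS, FARSA and FARSB also overlapped, with log2 differences from -0.20 in FARSA to 0.05 in GARS. The 8 genes with the promoter core had log2 differences from -0.29 in YARS2 to 0.44 in TARS, 5 of them negative.

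The mitochondrial enzymes had a median log2 difference of -0.10, with 11 negative and 6 positive (9 and 8 after median-ratio scaling or quantile normalization). MARS2 (hg19 chromosome 2, 198570093 to 198573111, plus strand) measured 0.481, 2.41 and 2.74 FPKM with SNHG10 probes and 6.02, 5.99 and 2.83 FPKM with LacZ probes. Every SNHG10 library lay below every LacZ library, narrowly so for SNHG10 3 and LacZ 3. The log2 difference was -1.10 ± 0.47, with an unadjusted limma p of 0.0487 and an adjusted p of 0.885, and it was -0.68 without SNHG10 1. CARS2 (hg19 chromosome 13, 111293764 to 111358504, minus strand), an enzyme also known to make cysteine persulfides, measured 14.1, 17.8 and 19.0 FPKM against 23.7, 29.5 and 20.1 FPKM. Its SNHG10 libraries were all lower, by a log2 difference of -0.50 ± 0.22 (limma adjusted p = 0.885). The leading row CARS2-201 overlapped, at 7.95, 15.6 and 11.2 FPKM against 21.7, 10.1 and 17.1 FPKM. Its log2 difference was -0.44 ± 0.38 (limma adjusted p = 0.951), and in LacZ 2 it held 34.3% of the gene value.

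All other mitochondrial enzymes overlapped between the probe sets. SARS2 measured 4.75, 6.55 and 11.5 FPKM with SNHG10 probes and 4.78, 2.73 and 6.24 FPKM with LacZ probes, and HARS2 7.26, 15.8 and 9.66 FPKM against 7.22, 7.79 and 8.91 FPKM. The log2 differences were 0.60 ± 0.40 and 0.35 ± 0.31. That of SARS2 was 0.29 without SNHG10 3 and 0.33 without LacZ 2, and that of HARS2 was 0.07 without SNHG10 2. IARS2, AARS2, YARS2 and TARS2 had log2 differences from -0.29 to -0.14. WARS2 had a log2 difference of 0.41, NARS2 of 0.28 and EARS2, the glutamyl enzyme that starts the indirect route to glutaminyl-tRNA, of 0.09. FARS2 at -0.03 and LARS2 at -0.05 changed sign with the scaling of the libraries.

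The deposited rows are transcripts, and the family's gene values hide larger differences between them. Of 98 member rows 64 were tested, and limma called 0 of them at an adjusted p of 0.05, against 15 of 16618 rows (0.0903%). At an unadjusted limma p of 0.05 there were 4 rows (6.25%, against 5.66% of all rows), namely EEF1E1-201, QARS-201, CARS-203 and SARS2-201. The libraries of 5 rows did not overlap (7.81%, against 10.5%). Of the members, 16 had 1 row and 24 had several. In 16 of those 24 the row with the highest value was not the same in all libraries. The sum had a narrower spread within a probe set than the highest row in 20 of the 24 genes, with a median SD of 0.31 against 0.58 on the log2 scale, while genes with 1 row had 0.33. A 0 stood in 52 rows, and no row was at 0 in 1 probe set and at 1 FPKM or more throughout the other.

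EEF1E1-201, the leading transcript of EEF1E1, measured 28.1, 16.1 and 20.6 FPKM with SNHG10 probes and 6.74, 11.3 and 6.73 FPKM with LacZ probes. Its SNHG10 libraries were all higher, by a log2 difference of 1.29 ± 0.32 (limma adjusted p = 0.390, the smallest among member rows). EEF1E1-205 measured 5.92, 14.3 and 11.6 FPKM against 17.6, 0.703 and 0.331 FPKM, so the high gene value of LacZ 1 came from this row. The leading row of QARS, QARS-201, measured 13.5, 30.3 and 22.5 FPKM against 5.56, 10.4 and 12.2 FPKM. All SNHG10 libraries of QARS-201 were higher (log2 difference 1.15 ± 0.41, limma adjusted p = 0.803). QARS-209, chosen after its values were seen, measured 5.06, 6.96 and 18.2 FPKM against 20.4, 24.2 and 16.4 FPKM, with overlap and a log2 difference of -1.11 ± 0.46 (limma adjusted p = 0.886). The gene value of QARS, which adds both, had a log2 difference of 0.25 ± 0.23, which was 0.0162 without LacZ 1 and 0.44 without LacZ 2.

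Single rows also set the libraries that stood apart in LARS and YARS, while several rows differed at once in IARS. These rows and those of CARS were chosen after their values were seen. LARS-216 measured 53.0, 31.1 and 1.05 FPKM with SNHG10 probes and 0, 22.9 and 25.8 FPKM with LacZ probes, while LARS-202 stayed between 15.4 and 24.6 FPKM in all libraries. IARS-203 measured 52.3 FPKM in LacZ 1 and 2.73 to 5.63 FPKM elsewhere, and IARS-202 measured 41.1 FPKM in LacZ 1 and 4.23 to 18.4 FPKM elsewhere. IARS-205 was listed at 0 in LacZ 1 and at 34.0 to 53.5 FPKM elsewhere. YARS-210 measured 73.5 FPKM in LacZ 2 and 4.64 to 38.1 FPKM elsewhere. CARS-201 led CARS in SNHG10 2, LacZ 1 and LacZ 2 with 28.0, 44.6 and 54.9 FPKM and was at 0.0212 FPKM in SNHG10 3 and at 0 in LacZ 3. In those last 2 libraries CARS-202 measured 13.4 and 13.2 FPKM, against at most 0.126 FPKM in the others. CARS-203 measured 22.3, 21.0 and 14.4 FPKM with SNHG10 probes and 0, 1.20 and 15.9 FPKM with LacZ probes. Its libraries overlapped, with a log2 difference of 2.58 ± 1.01 (limma adjusted p = 0.859). How the authors' estimates divided reads among overlapping transcripts was not tested.

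**Figure D5:**
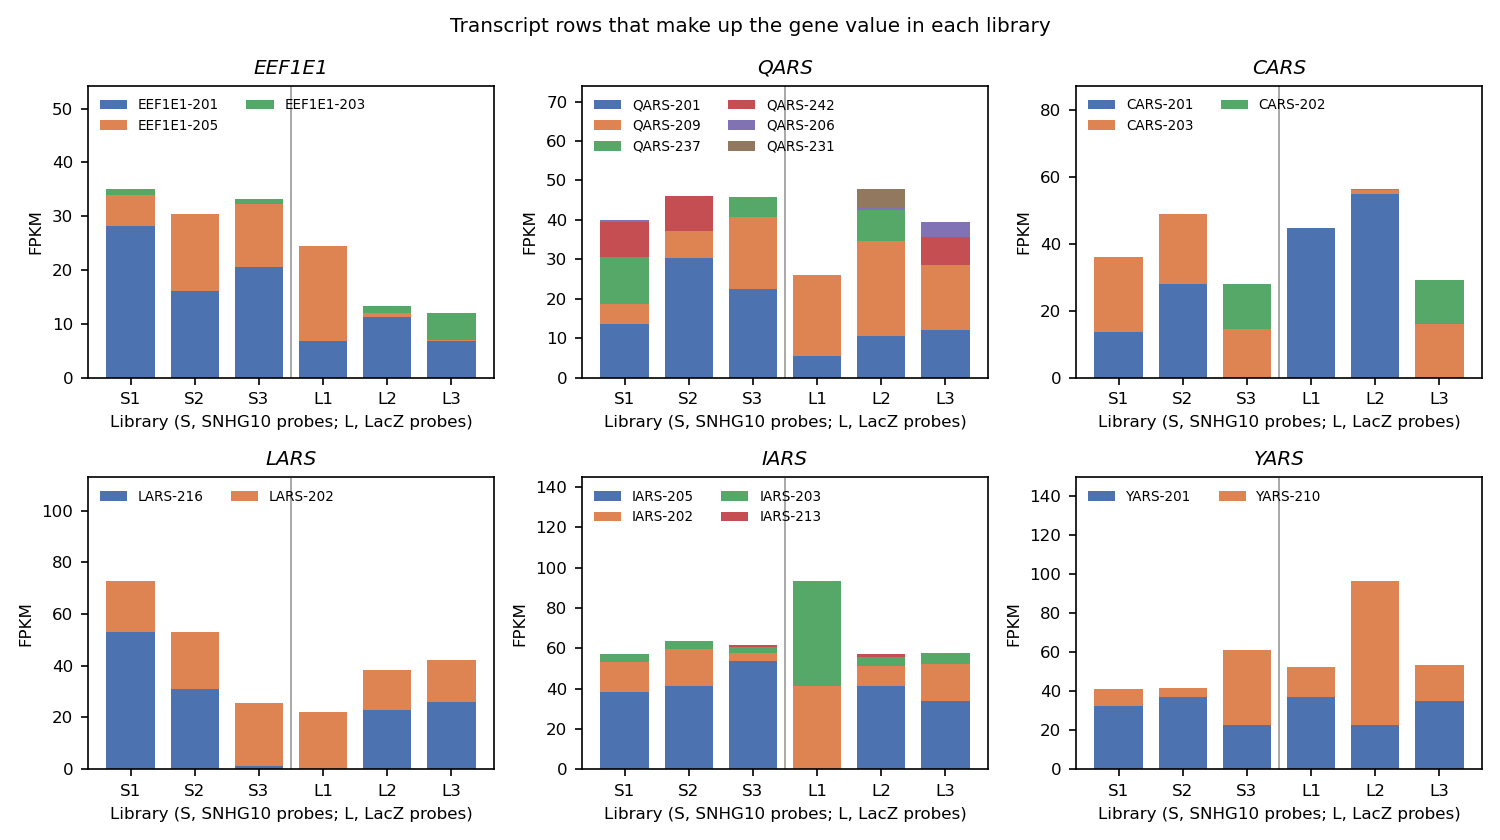
Transcript rows that make up the gene value of EEF1E1, QARS, CARS, LARS, IARS and YARS in each library, as stacked FPKM. S1 to S3 are the SNHG10 libraries and L1 to L3 the LacZ libraries; the rows trade places between libraries, as where IARS-203 stands at 52.3 FPKM and IARS-205 at 0 in L1.

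Many of these genes start beside another gene on the opposite strand. In the deposited hg19 coordinates, 10 divergent pairs with starts within 1000 bases included 11 members. HARS and HARS2, the cytosolic and mitochondrial histidine enzymes, form 1 such pair, with starts 37 to 85 bases apart. This distance rests on the rows HARS-210 and HARS-204, which were at 0 in 5 and 4 libraries. The leading row HARS-207 starts inside HARS2, at 140071609 against 140071011 for HARS2, and so overlaps the start of HARS2. Because the strand of counting is not given in the sources used here, reads of HARS and HARS2 there cannot be told apart. Starts were also close between SARS2 and the mitochondrial ribosomal protein gene MRPS12 (58 to 241 bases apart) and between KARS and the telomere protein gene TERF2IP (107 to 162 bases).

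Levels within a pair often differed. The member was higher than its neighbour in all 6 libraries in 5 of the 10 pairs: AARS over the RNA helicase gene DDX19B (10.2 FPKM), AIMP2 over the mismatch repair gene PMS2 (7.67 FPKM), KARS over TERF2IP (11.2 FPKM), WARS over WDR25 (3.40 FPKM) and YARS over S100PBP (6.401 FPKM). SARS2 was lower than MRPS12 (25.3 FPKM) in all 6. EARS2 beside UBFD1 (13.7 FPKM), FARS2 beside the iron-sulfur assembly gene LYRM4 (8.90 FPKM) and RARS2 beside the replication origin gene ORC3 (4.41 FPKM) changed order in 1 library, as did HARS and HARS2.

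The partners of the synthetases gave no call either, in any list. The elongation factors that receive charged tRNA and their exchange subunits were abundant, with 7 genes at a median of 94.6 FPKM. EEF1B2, a nucleotide exchange subunit of the elongation factor, measured 134, 181 and 147 FPKM with SNHG10 probes and 123, 134.1 and 128 FPKM with LacZ probes. Its SNHG10 libraries were all higher, SNHG10 1 by a margin of less than 1 FPKM, and the log2 difference was 0.25 ± 0.14 (limma adjusted p = 0.909). EEF1D had a log2 difference of 0.23 and EEF1A2 of -0.16, both with overlap. All 9 trans-editing and other charging factors had negative log2 differences, with a median of -0.35, and none had separated libraries; EEFSEC became positive after median-ratio scaling or quantile normalization. The 3 of them with the smallest p were AARSD1, an editing protein for mischarged alanine tRNA, at -1.40, the export receptor XPO5 at -0.43 and DTD1, which clears D-amino acids from tRNA, at -0.30. AARSD1 measured 4.03, 14.3 and 1.10 FPKM against 12.8, 17.4 and 10.7 FPKM, and its difference was -0.71 without SNHG10 3 and -2.14 without SNHG10 2.

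The indirect mitochondrial route and formylation had 4 listed genes, 1 positive and 3 negative. MTFMT, which formylates the initiator methionyl-tRNA that MARS2 makes, measured 1.07, 1.15 and 2.82 FPKM with SNHG10 probes and 0.981, 0.407 and 0.425 FPKM with LacZ probes. GATC, an amidotransferase subunit, measured 5.79, 7.47 and 6.08 FPKM against 8.58, 8.43 and 9.58 FPKM. MTFMT was separated upward and GATC downward, with log2 differences of 0.70 ± 0.41 and -0.41 ± 0.25 (limma adjusted p = 0.928 for both), and QRSL1 overlapped at -0.29. All LacZ values of MTFMT lay under 1 FPKM. It passed the filter of 1 FPKM in 3 libraries only through its SNHG10 libraries, so its separation was fixed by the filter.

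Of 27 genes of tRNA end processing and splicing, 16 were positive and 11 negative, and 4 were separated, all upward (14.8%, beside 4.22% of all genes separated upward and 11.4% in either direction). RPP30, a protein of RNase P, measured 11.1, 16.2 and 12.4 FPKM with SNHG10 probes and 4.90, 4.54 and 5.75 FPKM with LacZ probes. The SNHG10 libraries of RPP30 were all above the LacZ libraries, by 1.22 ± 0.26 (limma adjusted p = 0.691), but its highest transcript row alone gave -0.29. CLP1, an RNA kinase of tRNA splicing, measured 8.85, 8.56 and 5.97 FPKM against 3.00, 3.62 and 4.58 FPKM, a separation upward by 0.89 ± 0.30. TRPT1 overlapped and was listed at 0 in LacZ 2 and LacZ 3.

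The tRNA modification list had 42 tested genes, 18 positive and 24 negative, with 5 separated (11.9%, beside 11.4% of all genes). NSUN2, a tRNA cytosine methyltransferase, measured 7.23, 10.2 and 12.7 FPKM with SNHG10 probes and 14.9, 20.3 and 28.5 FPKM with LacZ probes. All its SNHG10 libraries were lower, by -0.996 ± 0.31 (limma adjusted p = 0.885). The dihydrouridine synthases DUS3L and DUS1L were separated in opposite directions, at -1.16 and 0.58. RNA polymerase III and its factors, which transcribe the tRNA genes, had 9 positive and 15 negative genes of 24, with 4 separated (16.7%, beside 11.4% of all genes). MAF1, the repressor of this polymerase, had a log2 difference of -0.36 with all SNHG10 libraries lower, and BRF1 one of 0.80 with overlap. TBP was listed at 13.4, 5.32 and 8.09 FPKM with SNHG10 probes and at 0, 0 and 4.83 FPKM with LacZ probes.

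The amino acid response outside the family was followed in 29 listed genes, of which 11 were positive and 18 negative (14 and 15 after median-ratio scaling) with a median of -0.06. SLC3A2, the heavy chain of amino acid transporters, measured 75.7, 113 and 70.5 FPKM with SNHG10 probes and 53.9, 54.7 and 63.1 FPKM with LacZ probes. DDIT3, the stress factor CHOP, measured 13.2, 18.0 and 13.9 FPKM against 19.9, 28.5 and 21.0 FPKM. SLC3A2 was thus separated upward (0.56 ± 0.20) and DDIT3 downward (-0.59 ± 0.23), both at an limma adjusted p of 0.885, and SHMT2, the mitochondrial serine hydroxymethyltransferase, overlapped at 0.45. The 13 genes of eIF2, its exchange factor and its kinases had 5 positive and 8 negative differences and no separated gene. IMPACT was listed at 0, 0 and 3.52 FPKM against 2.65, 3.28 and 8.64 FPKM, and EIF2B2 and EIF2B1 overlapped at -0.75 and -0.38.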

How the data were processed

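The authors deposited FPKM per transcript for 6 libraries, per the file headers. The submitters' processing notes name Bowtie2 2.1.0 and the build hg19, and the program that estimated FPKM is not given in the sources used here. Such values are scaled within each library, and no read depth is known, so no counting interval was computed. FPKM were summed by gene symbol (Python 3.11.15, pandas 2.3.3). The 10304 genes reaching 1 FPKM in 3 or more libraries entered a limma 3.58.1 fit (R 4.3.3, eBayes with trend) of log2(FPKM + 1), which understates changes of low genes, with Benjamini-Hochberg adjustment over all genes. Transcript rows were tested likewise. The fit was also run on simulated data, and how large a change it could detect is not given here. Members, lists and tests were chosen with earlier results of these data known. Named were all members but 1, the 3 tested genes of each other list with the smallest unadjusted p, divergent neighbours and the leading transcript row of members. Promoter sequences came from RefSeq (GRCh38.p14), matched through current gene symbols. SNHG10 was not analysed here. Of the members, 1 counts in the totals and is not reported by name, in the figures, the enzyme pairs or the neighbours. Replicate numbers are not stated to pair the libraries and were not taken to do so in the fit reported.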

Additional observations from a re-analysis of the deposited data

How the results depend on the processing

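Members called numbered 0 under every alternative run, genes and transcript rows alike. Beside 0 genes called in either direction in the fit reported, the highest transcript row in place of the sum gave 2 higher (OXA1L, TCAF1) and 2 lower (FAM83D, MSANTD3), named after their values were seen. Leaving out 1 library gave 0 to 1 higher (HIST2H4B, without LacZ 2) and 0 to 1 lower (RRM1, without SNHG10 1). Transcript rows, 8 higher and 7 lower in the fit reported, gave 0 and 0 with the replicate block, 3 and 3 with no filter, 3 and 3 at a minimum of 5 FPKM, 26 and 27 without the intensity trend, 3 and 2 with a pseudocount of 0.1, 3 and 2 with one of 5, and 0 to 0 with any library left out. Same-numbered libraries deviated together only weakly (r of 0.0151, 0.0121 and 0.0161 across genes), though each library correlated best with its own number. These r cannot decide whether the numbers pair the libraries, because the deviations were taken from means of only 3 libraries. The numbers were not taken as pairing because they are not stated to pair the libraries. The median member difference of -0.09 was -0.0339 after median-ratio scaling.

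Some directions turned. Median-ratio scaling gave 0.000529 for DARS, 0.0531 for FARSB, 0.00559 for LARS2 and 0.0241 for FARS2, and quantile normalization 0.0419 for FARSB, 0.0248 for LARS2 and 0.0264 for FARS2. The highest transcript row gave 0.85 for HARS, 1.98 for IARS, -0.00767 for NARS2, -0.49 for EARS2, 0.33 for FARS2, -0.32 for AIMP1, -0.29 for RPP30, -0.25 for SHMT2, 0.38 for EEF1A2 and -0.0104 for ENG. With 1 library left out the log2 difference ranged from -0.44 to 0.0218 for CARS, -0.31 to 0.16 for DARS, -0.15 to 0.00624 for EPRS, -0.39 to 0.0173 for FARSA, -0.11 to 0.0625 for FARSB, -0.10 to 0.14 for GARS, -0.23 to 0.0929 for HARS, -0.27 to 0.0795 for IARS, -0.11 to 0.20 for NARS and -0.28 to 1.02 for TARS. It ranged from -0.31 to 0.25 for LARS2, -1.53 to 0.18 for RARS2, -0.27 to 0.0718 for TARS2, -0.38 to 1.64 for VARS2, -0.14 to 0.34 for EARS2, -0.32 to 0.15 for FARS2, -0.15 to 0.87 for AIMP1, -0.78 to 0.0682 for QRSL1, -0.0720 to 0.17 for ENG and -0.10 to 0.20 for CD68. Without a change of sign, it ranged from 0.03 to 0.79 for RARS, -0.64 to -0.17 for YARS, 0.04 to 0.71 for WARS2, 0.07 to 0.58 for HARS2 and 0.29 to 0.85 for SARS2. The cause was not tested. Unknown depth limits the genes under a few FPKM, MARS2 and PARS2 among them.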
